A study of Mus musculus with 24 samples.

Results

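Neutrophils carry their proteins in granules that are filled in turn, kind after kind, as the cell matures, and the mRNA of each granule set is made only while that kind is being filled. The members described here are 10 genes that mark those steps, found on the arrays by their symbols: 4 azurophil (primary) granule genes (Mpo, Elane, Prtn3 and Ctsg), 2 genes of the promyelocyte and its next stages (Ms4a3 and Fcnb), and 4 specific (secondary) granule genes (Camp, Ltf, Ngp and Lcn2). They were 10 of 32451 genes or transcripts on the array, read by 11 probes. The RNA came from CD11b+ cells of male Balb/C mice, 10 weeks old, of 3 genotypes: WT, HDC-KO (which lack histidine decarboxylase, the enzyme that makes histamine) and STAT6-KO (which lack the transcription factor STAT6). The cells were taken from spleen and bone marrow of control mice and of mice 1, 2 and 4 weeks after myocardial infarction (MI). Each of the 24 conditions had 1 one-colour Agilent array, hybridised with RNA of cells pooled from 5 mice, and 22 arrays were complete (11 of spleen and 11 of bone marrow). Of the incomplete arrays, that of control spleen in HDC-KO and that of bone marrow at 1 week in STAT6-KO, neither held a spot of a member (0 spots), and they were not used.

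Promyelocytes make the azurophil granules, which hold myeloperoxidase and the neutrophil serine proteases, and they are dividing cells. Myelocytes and metamyelocytes then stop the azurophil genes and make the specific granules, which hold lactoferrin, the cathelicidin and other antimicrobial proteins. A mature neutrophil stores both sets of proteins but has little mRNA for either, so these mRNAs mark immature cells of the neutrophil lineage. CD11b is a subunit of the integrin Mac-1, present on neutrophils, monocytes and macrophages, and it appears on the neutrophil lineage as the cells mature. In bulk RNA, fewer cells of a kind and less RNA per cell cannot be told apart.

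The transcription factors PU.1 and C/EBP are known to act on granule genes, so the 250 bases before the start site of each member were searched for their core letters. RefSeq sequences were used (GRCm38.p6, all 10 members matched), and 6 letter patterns were searched on both strands. The letters GGAAGT of a PU.1 site were found in all 4 azurophil and both promyelocyte-stage promoters and in 0 of the 4 specific granule promoters, and 19.7% of all 32851 promoters held them. The longer GAGGAAGT, which contains GGAAGT, was found in Mpo, Elane and Prtn3 and in 2.44% of all promoters. The letters TTGCNNAA of a C/EBP site were found in Ltf, Ngp, Lcn2 and Fcnb and in 0 of the 4 azurophil promoters, against 9.56% of all promoters. CAACNG (MYB) was found in Elane, Prtn3, Ctsg, Ngp and Lcn2 and in 29.3% of all promoters. TGTGGT (RUNX) was found in Ctsg and in 14% of all promoters, and AAATCA (GFI1) in Ltf and in 12.4%. A match describes the letters only, and no binding was measured.

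The 6 stretches below are shown because they hold those letters in the azurophil set, in the specific set, and in Fcnb in both kinds. They lie at chr11:87793534-87793783 on the plus strand for Mpo, chr10:79886062-79886311 on the plus strand for Elane and chr10:79879417-79879666 on the plus strand for Prtn3. The others lie at chr2:28084879-28085128 on the minus strand for Fcnb, chr9:111019042-111019291 on the plus strand for Ltf and chr9:110419558-110419807 on the plus strand for Ngp. Capitals mark GGAAGT and TTGCNNAA on either strand, and each run is written 5′ to 3′ along the gene and ends at the base before the start site.
Mpo: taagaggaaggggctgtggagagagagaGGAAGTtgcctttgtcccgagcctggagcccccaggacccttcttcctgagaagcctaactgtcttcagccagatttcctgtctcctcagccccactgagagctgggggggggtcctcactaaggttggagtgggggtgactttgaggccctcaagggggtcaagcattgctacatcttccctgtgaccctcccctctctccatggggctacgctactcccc
Elane: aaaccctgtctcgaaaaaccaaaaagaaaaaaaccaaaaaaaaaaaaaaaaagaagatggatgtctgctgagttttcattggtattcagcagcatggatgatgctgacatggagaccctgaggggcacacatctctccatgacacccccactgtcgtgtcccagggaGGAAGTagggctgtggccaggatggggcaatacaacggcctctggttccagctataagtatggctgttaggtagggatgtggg
Prtn3: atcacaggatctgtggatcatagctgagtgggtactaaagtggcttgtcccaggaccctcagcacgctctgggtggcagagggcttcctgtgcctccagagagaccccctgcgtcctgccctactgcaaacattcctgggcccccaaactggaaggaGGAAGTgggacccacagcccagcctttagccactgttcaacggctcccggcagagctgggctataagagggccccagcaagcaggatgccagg
Fcnb: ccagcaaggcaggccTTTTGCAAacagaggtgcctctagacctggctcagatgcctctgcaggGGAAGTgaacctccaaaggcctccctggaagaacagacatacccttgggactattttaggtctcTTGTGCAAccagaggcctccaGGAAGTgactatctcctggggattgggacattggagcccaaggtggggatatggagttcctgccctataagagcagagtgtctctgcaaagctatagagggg
Ltf: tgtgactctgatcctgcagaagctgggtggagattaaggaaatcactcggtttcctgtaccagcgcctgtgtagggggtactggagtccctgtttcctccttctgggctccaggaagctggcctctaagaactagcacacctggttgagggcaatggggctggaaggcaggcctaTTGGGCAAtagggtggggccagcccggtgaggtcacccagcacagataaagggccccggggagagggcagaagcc
Ngp: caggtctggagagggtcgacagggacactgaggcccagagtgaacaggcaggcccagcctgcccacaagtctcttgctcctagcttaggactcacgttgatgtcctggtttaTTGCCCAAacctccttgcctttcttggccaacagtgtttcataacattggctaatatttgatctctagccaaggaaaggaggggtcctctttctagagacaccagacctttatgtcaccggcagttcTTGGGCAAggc
In Elane and Prtn3, which are neighbours on chromosome 10, GGAAGT began 83 and 93 bases before the start site. In Mpo it began 222 bases before it. Ngp held TTGCNNAA 138 and 11 bases before its start site, and Ltf held it 75 bases before.

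Levels are given as log2 of the processed spot signal minus the 75th percentile of the same array, so a difference of 1 is a change of 2-fold between arrays. Levels of different probes were not set against each other. All members were well above background on all 22 arrays. Tests were made with limma on all genes, and a gene was called where the Benjamini-Hochberg adjusted p was under 0.05. Each slide held 4 arrays of 1 genotype and 1 tissue, in the order of the time points, so within a tissue the genotype and the slide cannot be told apart, and the same holds for time after MI and array position. No slide held both tissues, so a difference between tissues is also one between slides. The pairs of 1 genotype share their slides and are not independent. By its probe, Hdc lay between 1.67 and 2.78 on the 7 HDC-KO arrays and between 4.32 and 5.51 on the 8 WT arrays. Stat6 lay between 1.76 and 2.44 on the 7 STAT6-KO arrays, which met the WT range of 2.38 to 3.70, and whether its probe lies in the deleted part is not given in the sources used here. No condition was repeated, so the p-values do not measure the spread between repeated pools of 1 condition. In the genotype fits the time points stood for replicates, and in the MI fits the genotypes did. The error of these fits holds the variation of an effect between time points or genotypes. Between tissues it holds the variation between pairs.

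**Figure D1:**
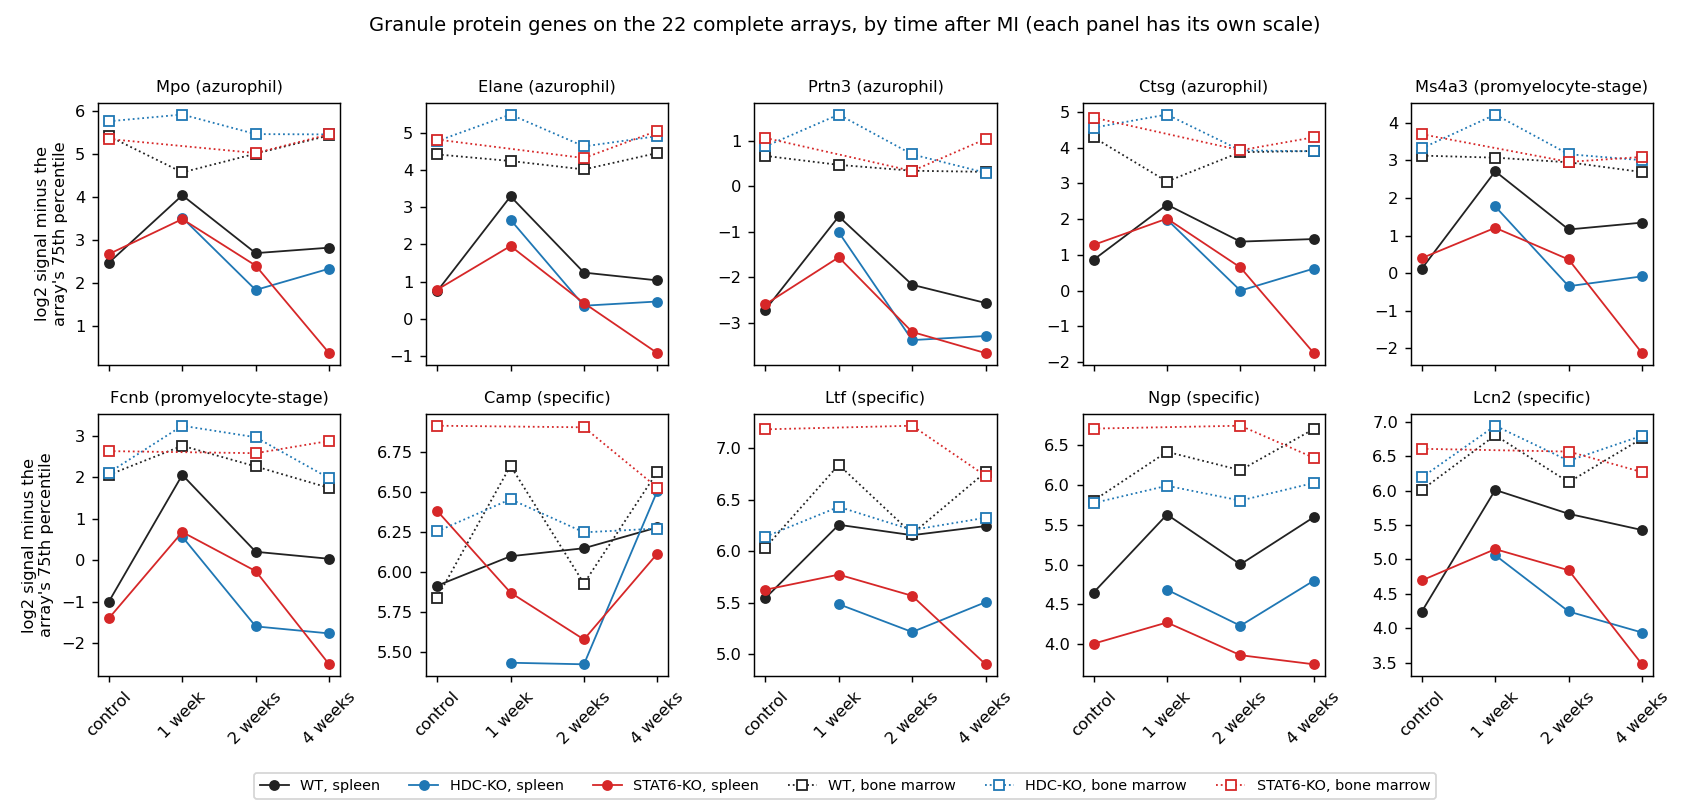
Log2 level of the 10 members (vertical axis, log2 signal minus the 75th percentile of the array, own scale in each panel) at control and 1, 2 and 4 weeks after MI (horizontal axis), with 1 point for each array, filled circles for spleen and open squares for bone marrow, and colour for genotype. The azurophil and promyelocyte-stage genes lie low in spleen and are highest there 1 week after MI, while the spleen and bone marrow arrays of Camp overlap.

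All 10 members were lower in spleen than in bone marrow CD11b+ cells, and the azurophil genes were lower by far more than the specific granule genes. In this comparison of 10 pairs of arrays, 54.5% of 27659 genes were called, 32.1% as lower in spleen. With the slide as a random block, 9 members and 46.7% of all genes were called. The median difference was -3.20 over the 4 azurophil genes, -2.87 over the 2 promyelocyte-stage genes and -1.30 over the 4 specific granule genes, against -0.17 over all genes. Spleen and bone marrow arrays did not overlap for Mpo, Elane, Prtn3, Ctsg, Ngp and Lcn2, which 14.4% of all genes showed.

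Elane, neutrophil elastase, had the largest difference of the 10. Its level was -0.92 at the lowest, 0.78 at the median and 3.29 at the highest of the 11 spleen arrays. In bone marrow it was 4.01, 4.63 and 5.49. Every spleen array lay below every bone marrow array. The fitted difference was -3.62 ± 0.37 (SE, 10 pairs), or 12.3-fold lower in spleen, with a limma adjusted p of 7.74e-06. The fall was deeper than that of all but 0.101% of the genes tested.

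Prtn3, proteinase 3, is the serine protease encoded next to Elane. Its lowest, median and highest levels were -3.66, -2.59 and -0.66 in spleen and 0.30, 0.67 and 1.58 in bone marrow. The groups were again apart, and the difference was -3.20 ± 0.28 (SE, 10 pairs; limma adjusted p = 2.59e-06). Ctsg, cathepsin G, the other serine protease of the set, had levels of -1.74, 1.28 and 2.41 in spleen and 3.06, 3.93 and 4.93 in bone marrow. No spleen array of it reached the lowest bone marrow array, and the difference was -3.21 ± 0.38 (SE, 10 pairs; limma adjusted p = 2.45e-05).

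Mpo, myeloperoxidase, makes hypochlorous acid from hydrogen peroxide and is the most used marker of azurophil granules. Its levels were 0.37, 2.67 and 4.04 in spleen and 4.57, 5.43 and 5.91 in bone marrow. It was 6.92-fold lower in spleen, at -2.79 ± 0.32 (SE, 10 pairs; limma adjusted p = 2.04e-05), with all spleen arrays below all bone marrow arrays.

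Ms4a3, a membrane protein of granulocyte and monocyte progenitors, had levels of -2.12, 0.40 and 2.71 in spleen and 2.69, 3.09 and 4.22 in bone marrow. Its groups overlapped by the WT spleen MI 1 week array alone, which lay just above the WT bone marrow MI 4 weeks array. Fcnb, ficolin B, a lectin of immature granulocytes, had levels of -2.50, -0.26 and 2.06 in spleen and 1.75, 2.58 and 3.25 in bone marrow, and the same spleen array crossed into the bone marrow range. The differences were -2.66 ± 0.37 for Ms4a3 and -3.07 ± 0.40 for Fcnb (SE, 10 pairs), and both were lower in spleen in all 10 pairs.

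Among the specific granule genes, Lcn2 (lipocalin 2, which binds bacterial siderophores) and Ngp (neutrophilic granule protein, related to the cathelicidins) differed most. Lcn2 had levels of 3.48, 4.84 and 6.01 in spleen and 6.01, 6.57 and 6.94 in bone marrow, so that the groups touched without overlapping. It was 3.41-fold lower in spleen (limma adjusted p = 4.06e-05). Ngp had levels of 3.75, 4.65 and 5.63 in spleen and 5.77, 6.18 and 6.74 in bone marrow. Its groups were apart, and it was 3.14-fold lower in spleen (limma adjusted p = 6.98e-05).

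Ltf, lactoferrin, which binds iron, had levels of 4.90, 5.57 and 6.26 in spleen and 6.03, 6.43 and 7.22 in bone marrow. These ranges overlapped, yet Ltf was lower in spleen in all 10 pairs, by 1.92-fold (limma adjusted p = 0.000784). Camp, the cathelicidin, had levels of 5.42, 6.10 and 6.51 in spleen and 5.84, 6.45 and 6.91 in bone marrow. It was lower in spleen in 7 of 10 pairs, and its difference of -0.45 ± 0.16 (SE, limma adjusted p = 0.0341) was the smallest of the 10 members. This call for Camp was lost when the WT MI 1 week pair, or any of 5 other single pairs, was left out (limma adjusted p up to 0.0772), and under quantile normalization (0.0561), with the 75th percentile over probes detected on all arrays (0.0725) or with the slide as a random block (0.0608). Its second probe gave -0.51, and the 2 probes had a Pearson's r of 0.97 over 22 arrays.

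**Figure D2:**
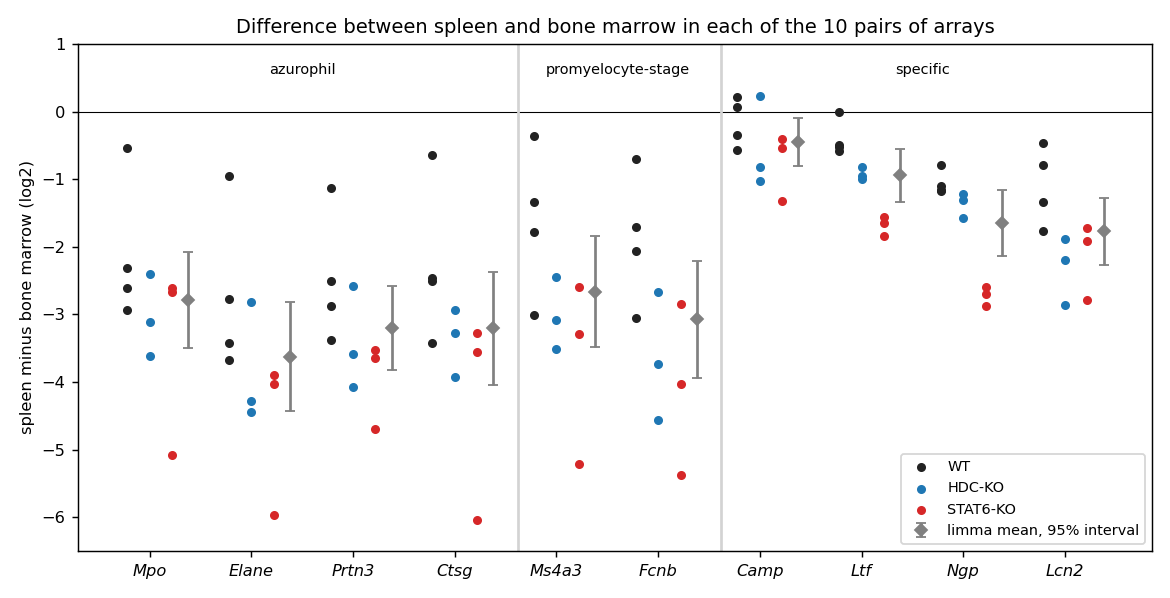
Spleen minus bone marrow (vertical axis, log2 difference) for each member (horizontal axis) in the 10 pairs of arrays of the same genotype and time point, coloured by genotype, with the limma mean and its 95% interval as grey diamonds. The azurophil differences reach -6.04 in a STAT6-KO pair, those of Camp lie between -1.33 and 0.24 and those of Ltf between -1.83 and -0.01. The STAT6-KO pairs of Ngp and Ltf lie below all other pairs, and the share of all genes parted in this way was not computed.

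On average the azurophil genes fell further than the specific granule genes in every pair, though by little in WT MI 1 week. The mean azurophil difference minus the mean specific difference was between -3.54 (STAT6-KO MI 4 weeks) and -0.13 (WT MI 1 week), below 0 in all 10 pairs. In WT MI 1 week, the 4 azurophil genes lay only 0.53 to 1.13 below bone marrow on the log2 scale, which was the smallest difference of the 10 pairs for each of them. The 4 specific granule genes lay 0.57 to 0.79 below bone marrow in that pair, so the 2 sets interleaved. The azurophil median of the fit minus the specific median was -1.91.

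Other granule genes were counted from lists chosen with earlier results of these data known. Of 13 other specific and gelatinase granule genes, 12 were lower in spleen and 0 higher, at a median of -1.53. The 4 with the highest signal were Hp (haptoglobin) at -0.60 ± 0.14, Chil3 (a chitinase-like protein) at -1.08 ± 0.19, Slpi (an inhibitor of serine proteases) at -0.52 ± 0.13 and Cyba (a subunit of the NADPH oxidase) at -0.53 ± 0.14. Of 9 other azurophil and protease-processing genes, 5 were lower and 2 higher, at a median of -0.38. The 4 with the highest signal were all lower, namely Srgn (the granule proteoglycan serglycin) at -0.38 ± 0.15, Serpinb1a (an inhibitor of elastase) at -1.68 ± 0.22, Cd63 (a granule membrane protein) at -1.26 ± 0.15 and Hexa (a lysosomal enzyme) at -0.35 ± 0.12. The 2 higher genes were Ctsc, which activates the granule serine proteases and is also made by other leukocytes, at 0.91 ± 0.13, and Calr, a chaperone of most cells, at 0.73 ± 0.10.

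Of 11 transcription factors and receptors of granulopoiesis, 9 were lower and 0 higher, at a median of -0.65. Among the 4 with the highest signal, Csf2ra (a chain of the GM-CSF receptor) was at -0.75 ± 0.10, Cebpb at -0.34 ± 0.13 and Cebpd at -0.65 ± 0.14, and Csf3r (the G-CSF receptor) was at -0.25 ± 0.14 and did not pass (limma adjusted p = 0.165). Myb, Cebpe, Spi1 and Runx1 were named after their values were seen. Myb, a factor of progenitors, was at -2.18 ± 0.22, Cebpe, which the specific granule genes need, at -1.82 ± 0.24, and Spi1, which encodes PU.1, at -0.92 ± 0.18. Runx1 was at 0.04 ± 0.10 and did not pass (limma adjusted p = 0.772). Other progenitor markers, also named after their values were seen, did not all follow Myb. Median levels in spleen and bone marrow were -0.087 and -0.997 for Kit, 0.66 and -1.16 for Flt3, and 3.33 and 1.88 for Cd48. Cd34 was lower in spleen, with medians of -1.598 and 0.497. The summed level of 5 myeloid progenitor markers had medians of 3.896 in spleen and 3.83 in bone marrow.

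Markers of other cells and of the sort also differed between the tissues. Itgam, which encodes the sorted antigen CD11b, and Itgb2, which encodes its partner chain CD18, were lower in spleen, at -1.47 ± 0.14 and -1.31 ± 0.14. Their summed log2 level was 4.24 to 5.42 on the spleen arrays and 5.71 to 6.35 on the bone marrow arrays. Of 8 macrophage markers, all 8 were higher in spleen, with summed levels of 5.98 to 7.39 against 4.16 to 5.26. All 6 B cell markers were higher too, with summed levels of 4.22 to 6.19 against 0.72 to 4.77. All 5 basophil and mast cell markers were lower in spleen, with median summed levels of -0.11 against 2.26. Of 5 eosinophil markers, 3 were lower and 1 higher, with Epx (eosinophil peroxidase) at -3.96 ± 0.43 and Prg2 (major basic protein) at -3.68 ± 0.46. Ccr3 went the other way, with a median level of 2.14 in spleen and -0.46 in bone marrow. Siglecf had medians of 0.55 and 0.57. Of 5 NK cell markers, 4 were higher and 0 lower, with median summed levels of 4.29 against 2.33. Of 10 dividing-cell markers, 9 were lower in spleen, with summed levels of 4.68 to 5.97 against 5.85 to 6.91. Of 9 markers of mature neutrophils, 5 were lower and 0 higher, with median summed levels of 8.22 against 8.63. Median summed levels in spleen and bone marrow were 6.63 and 5.88 for monocyte markers and 5.88 and 5.73 for dendritic cell markers. They were 5.41 and 4.40 for plasma cell markers and 5.39 and 4.40 for erythroid markers. For T cell markers they were 3.47 and 3.91, and single genes went both ways, with medians of 2.23 and 3.55 for Cd3d and 0.70 and -3.97 for Cd3g. At least 7 of the 8 macrophage markers and 5 of the 6 B cell markers were well above background on every bone marrow array. The part of these cells in the differences of the members was not tested.

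At 1 week after MI, the azurophil and promyelocyte-stage genes of the spleen stood above control, and 3 of them passed the test. The spleen fit held 11 arrays, with 3 at 1 week and 2 at control, since the HDC-KO control array was not complete. In it 7.9% of 26472 genes were called, 1.63% as higher and 6.27% as lower. The median difference was 1.40 over the 4 azurophil genes, 2.18 over the 2 promyelocyte-stage genes and 0.48 over the 4 specific granule genes, against -0.16 over all genes. The arrays of 1 week and control did not overlap for 7 of the 10 members, and neither did they for 36.4% of all genes.

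Fcnb had levels of -0.99 (WT) and -1.39 (STAT6-KO) at control, and of 2.06 (WT), 0.57 (HDC-KO) and 0.68 (STAT6-KO) at 1 week. All 3 arrays of 1 week lay above both controls. The difference was 2.62 ± 0.48 (SE), or 6.15-fold higher, with a limma adjusted p of 0.0228. Elane had 0.74 (WT) and 0.78 (STAT6-KO) at control, and 3.29 (WT), 2.66 (HDC-KO) and 1.96 (STAT6-KO) at 1 week. It rose by 1.88 ± 0.41 (SE), or 3.67-fold (limma adjusted p = 0.0356). Prtn3 had -2.71 (WT) and -2.59 (STAT6-KO) at control, and -0.66 (WT), -1.01 (HDC-KO) and -1.56 (STAT6-KO) at 1 week. It rose by 1.66 ± 0.32 (SE), or 3.16-fold (limma adjusted p = 0.0251). For these 3 genes the WT array was the highest of the 3 at 1 week.

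The other members did not pass the test. Mpo was at 1.13 ± 0.57 (SE), Ctsg at 1.12 ± 0.74 and Ms4a3 at 1.74 ± 0.72, with limma adjusted p of 0.244, 0.363 and 0.164. Each of these had both controls below the 3 arrays of 1 week. Among the specific granule genes, Lcn2 was at 1.16 ± 0.44, Ngp at 0.57 ± 0.26, Ltf at 0.39 ± 0.30 and Camp at -0.27 ± 0.29 (limma adjusted p between 0.136 and 0.578). The azurophil median exceeded the specific median by 0.91. In WT alone, Fcnb was 8.31-fold and Elane 5.85-fold its own control at 1 week, and Camp 1.14-fold. In STAT6-KO these values were 4.22-fold, 2.25-fold and 0.701-fold.

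The number of calls changed with the processing and the arrays, among the members and among all genes. With the arrays of the 2 time points alone and with normexp background correction, 0 of 10 members and 0% of all genes were called, with normexp at fitted differences of 1.75 for Elane, 1.56 for Prtn3 and 2.42 for Fcnb. Without the WT arrays or without the HDC-KO arrays 0 members were called, with 0% and 0.986% of all genes. Without the STAT6-KO arrays 7 members and 12.8% of all genes were called. Without the STAT6-KO spleen MI 4 weeks array alone, 6 members and 9.17% of all genes were called, the members being all but the specific granule genes.

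Of 10 dividing-cell markers, 3 rose at 1 week in spleen, where 2 of the 4 azurophil genes did, namely Mcm5 (a subunit of the replicative helicase) by 1.61 ± 0.25, Mki67 (the antigen Ki-67) by 1.39 ± 0.34 and Top2a (a topoisomerase of dividing cells) by 1.20 ± 0.26. The summed level of the 10 was 5.97 on the WT, 5.28 on the HDC-KO and 5.54 on the STAT6-KO array of 1 week, and 4.82 (WT) and 4.89 (STAT6-KO) at control. Of 5 T cell markers, Cd3e, Cd3g and Cd8a fell by 1.98, 2.07 and 1.38 on the log2 scale. Of 13 other specific and gelatinase granule genes, 12 were tested and Cybb alone rose, by 1.22 ± 0.30 (limma adjusted p = 0.0497). Of 9 markers of mature neutrophils, 0 were called, at a median of -0.28. The part of dividing cells or of T cells in the change of the members was not tested.

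**Figure D3:**
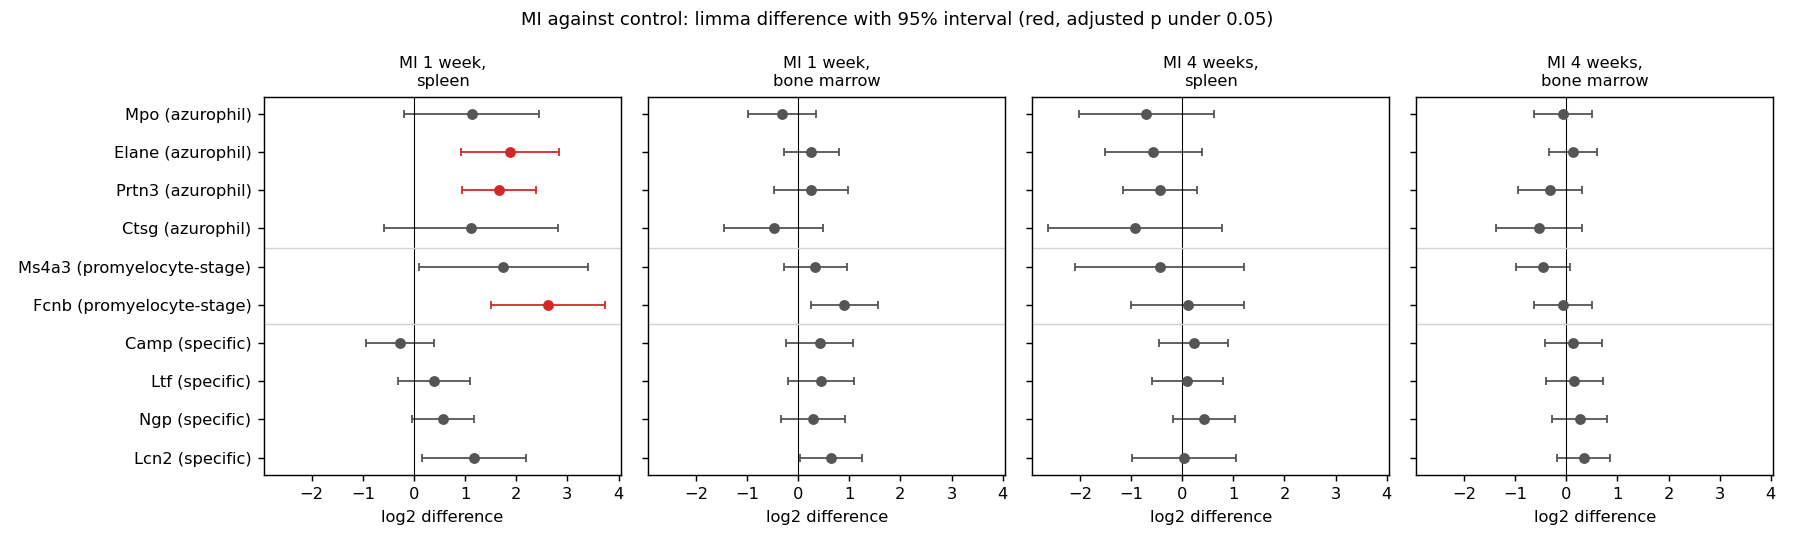
Difference from control 1 and 4 weeks after MI (horizontal axis, log2) for each member (vertical axis) in spleen and bone marrow, with the limma estimate as a point and its 95% interval as a bar, in red where the adjusted p was under 0.05. Elane, Prtn3 and Fcnb at 1 week in spleen are the only red points, and the intervals in bone marrow are centred between -0.53 and 0.90.

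At 2 and 4 weeks after MI no member was called in spleen, where 2.25% (2.05% as lower) and 0% of all genes were. Arrays of MI and control overlapped for all 10 members at both times, and did not for 31.8% and 23.5% of all genes. At 4 weeks 2303 genes had an unadjusted p under 0.05 in limma. The comparisons at 1, 2 and 4 weeks share the same control arrays. At 2 weeks the fitted differences lay between -0.36 (Camp) and 0.97 (Fcnb), with limma adjusted p of 0.262 or more. At 4 weeks they lay between -0.92 (Ctsg) and 0.42 (Ngp), with limma adjusted p of 0.658 or more. Their signs at 4 weeks were not stable. Without the STAT6-KO arrays Ctsg stood at 0.60, Mpo at 0.42 and Ms4a3 at 1.15, and without the WT arrays at -2.13, -1.56 and -1.82. Without the STAT6-KO MI 4 weeks array alone they stood at 0.22, 0.18 and 0.57. Lcn2, at 0.04, kept its sign in 6 of 13 alternatives. The STAT6-KO MI 4 weeks array was the lowest spleen array for each member but Camp, with Mpo at 0.37, against 2.33 (HDC-KO) and 2.82 (WT) at the same time. The dividing-cell markers were also lowest on that array, at a summed level of 4.68.

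In bone marrow, MI was followed by no call among the members. At 1 week 0.148% of 27090 genes were called (0.00738% as higher), and at 2 and 4 weeks 0% were, with 2025 and 5187 genes at an unadjusted p under 0.05 in limma. At 1 week, with 2 arrays (WT and HDC-KO) against 3 controls, Fcnb was at 0.90 ± 0.28 (SE, limma adjusted p = 0.166) and Lcn2 at 0.63 ± 0.26 (0.239). These were the 2 members whose arrays did not overlap at 1 week, against 25.2% of all genes. At 2 weeks Ctsg (12.7% of all genes) and at 4 weeks Ms4a3 (19% of all genes) did not overlap, both below control. The azurophil median was -0.03 at 1 week, -0.38 at 2 weeks and -0.19 at 4 weeks. At 1 week the fit had Ctsg at -0.48 ± 0.41 and Elane at 0.26 ± 0.23. Elane was 4.24 in WT and 5.49 in HDC-KO at 1 week, against 4.42 and 4.77 at control. The 95% interval of Elane at 1 week ran from -0.28 to 0.80.

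Genotype was compared next, with the time point in the fit. In STAT6-KO spleen, all 10 members had fitted values below WT, and Ngp alone was called, where 1.95% of all genes were (1.28% as lower). Ngp was 4.65, 5.63, 5.00 and 5.60 in WT spleen at control, 1, 2 and 4 weeks. In STAT6-KO spleen it was 4.01, 4.27, 3.86 and 3.75. Every STAT6-KO array lay below every WT array, which 5.64% of all genes showed in this comparison. The difference was -1.25 ± 0.20 (SE, 4 arrays a genotype), or 2.37-fold lower, with a limma adjusted p of 0.0288. The call was lost without the STAT6-KO MI 4 weeks array (adjusted p = 0.0501), without the 1, 2 or 4 weeks arrays (up to 0.125), with the 2 genotypes alone (0.0794) and with normexp (0.270). In these fits between 0.0151% and 0.813% of all genes were called, while the fitted value stayed between -1.48 and -1.05.

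The other members of STAT6-KO spleen lay between -1.37 (Ms4a3, adjusted p = 0.183) and -0.12 (Camp, 0.772) in the limma fit, and Camp was at 0.03 without the 2 weeks arrays. Elane was at -1.01 ± 0.31 (SE, 0.114), and its arrays overlapped, with 0.74 to 3.29 in WT and -0.92 to 1.96 in STAT6-KO. The azurophil median was -0.87 and the specific median -0.69, against -0.06 over all genes. Of 8 macrophage markers 0 were called, at a median of 1.08, and of 10 dividing-cell markers 0 were called, at a median of -0.53. Their part in the values of the members was not tested. Without the STAT6-KO MI 4 weeks array, Mpo stood at -0.20, Ctsg at -0.24, Ms4a3 at -0.72 and Elane at -0.70. Without the control arrays, Elane (-1.37, limma adjusted p = 0.0448) and Prtn3 (-1.01, 0.0432) were called beside Ngp, with 3.67% of all genes.

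In STAT6-KO bone marrow the members all had fitted values above WT and none was called, while 4.61% of all genes were (3.98% as higher). They lay between 0.12 (Mpo) and 0.69 (Fcnb), with limma adjusted p of 0.141 or more, and those of Mpo and Lcn2 were below 0 in 2 of 14 alternatives each (down to -0.01 and -0.03). Ltf was 6.03, 6.84, 6.17 and 6.77 in WT bone marrow at control, 1, 2 and 4 weeks, and 7.19, 7.22 and 6.73 in STAT6-KO at control, 2 and 4 weeks. Its ranges overlapped, and it was called under quantile normalization alone, at 0.74 (limma adjusted p = 0.0355), where 5.5% of all genes were called.

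HDC-KO was compared with the same WT arrays. In HDC-KO spleen, with arrays of 1, 2 and 4 weeks, no member was called, while 2.8% of all genes were. All 10 fitted values were below WT, with the largest for Fcnb, at -1.56 ± 0.40 (SE, limma adjusted p = 0.0817). Fcnb was 0.57, -1.59 and -1.76 in HDC-KO spleen and 2.06, 0.21 and 0.04 in WT at the same times. At each time the HDC-KO array was the lower by 1.49 to 1.80, but the WT control array, at -0.99, lay among the HDC-KO values. Ltf was 5.48, 5.21 and 5.5 in HDC-KO, below all WT arrays (5.54 to 6.26), which 8.3% of all genes showed, and its limma adjusted p was 0.154. With the arrays of WT and HDC-KO alone, 6 members were called as lower, namely Elane, Ms4a3, Fcnb, Ltf, Ngp and Lcn2, with limma adjusted p between 0.00988 and 0.0474, and 9.95% of all genes were called in that fit.

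In HDC-KO bone marrow no member was called, while 0.443% of all genes were. Mpo was 5.76, 5.91, 5.46 and 5.45 in HDC-KO at control, 1, 2 and 4 weeks, and 5.41, 4.57, 5.00 and 5.43 in WT. Elane was 4.77, 5.49, 4.63 and 4.91 in HDC-KO, and 4.42, 4.24, 4.01 and 4.45 in WT. In both genes every HDC-KO array lay above every WT array, which 8.03% of all genes showed. The differences were 0.54 ± 0.21 for Mpo and 0.67 ± 0.17 for Elane (SE, 4 arrays a genotype), with limma adjusted p of 0.213 and 0.136. The specific granule genes lay between -0.38 (Ngp) and 0.17 (Lcn2).

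**Figure D4:**
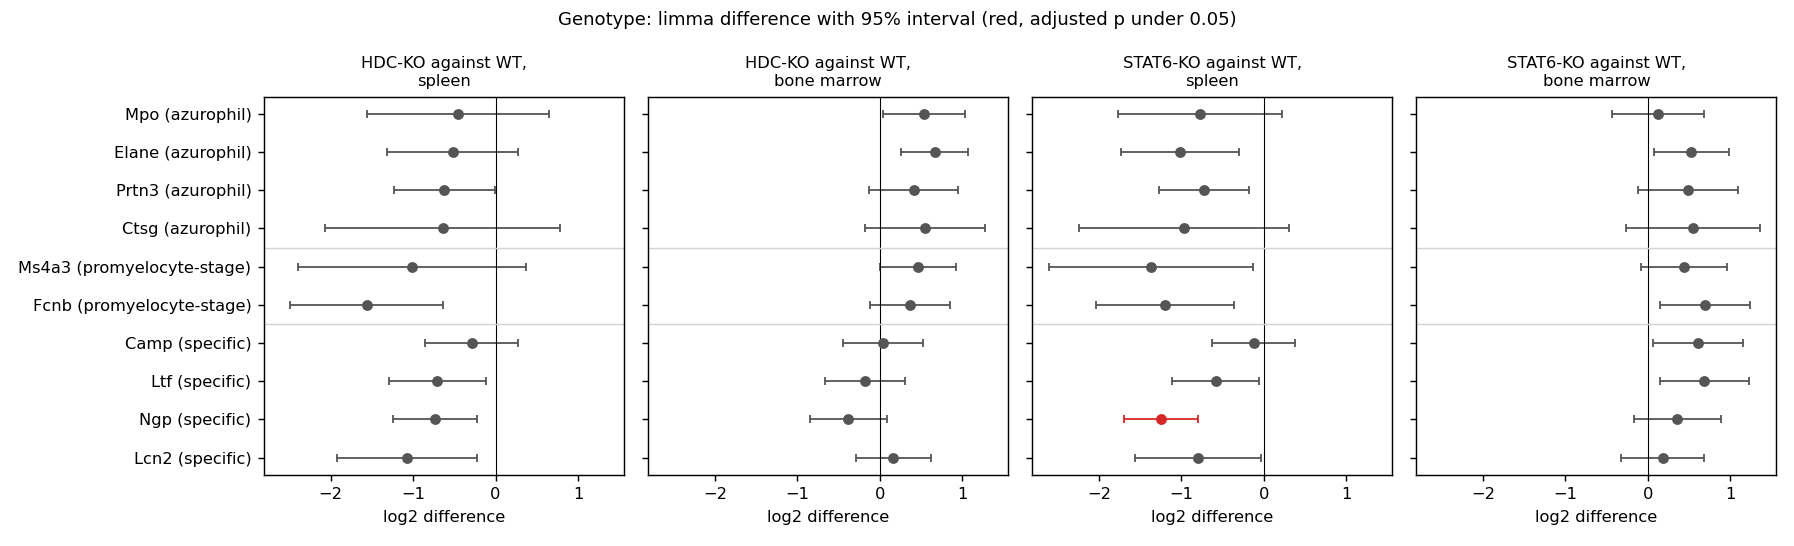
Difference from WT (horizontal axis, log2) for each member (vertical axis) in HDC-KO and STAT6-KO spleen and bone marrow, with the limma estimate as a point and its 95% interval as a bar, in red where the adjusted p was under 0.05. All spleen estimates lie below 0, the azurophil and promyelocyte-stage estimates in bone marrow lie above 0, and Ngp in STAT6-KO spleen is the only red point.

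The genotype effects in the 2 tissues were then set against each other by the difference between spleen and bone marrow in each pair. In STAT6-KO against WT, 1.2% of 27659 genes were called (0.0795% as higher and 1.12% as lower) and Ngp was the 1 member among them. The difference of Ngp between spleen and bone marrow was -1.15, -0.79, -1.18 and -1.11 in the WT pairs at control, 1, 2 and 4 weeks. It was -1.30, -1.57 and -1.23 in the HDC-KO pairs at 1, 2 and 4 weeks, and -2.70, -2.88 and -2.59 in the STAT6-KO pairs at control, 2 and 4 weeks. The 3 genotypes did not overlap, and the STAT6-KO pairs were the lowest. How many of all genes show such a separation of pairs was not computed, here or for Ltf below. STAT6-KO differed from WT by -1.61 ± 0.20 (SE, limma adjusted p = 0.0311). The call was lost without any single time point (adjusted p = 0.0631 to 0.254) and under quantile normalization (0.0613), with fitted values between -1.86 and -1.38 over all alternatives. Without a time point 0% of all genes were called in each of the 4 fits, and under quantile normalization 0.524% were.

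Ltf had a like order, at -0.49, -0.58, -0.01 and -0.53 in the WT pairs, at -0.95, -0.99 and -0.82 in the HDC-KO pairs, and at -1.56, -1.66 and -1.83 in the STAT6-KO pairs. Its value for STAT6-KO against WT was -1.32 ± 0.23 (SE), just short of the threshold (limma adjusted p = 0.053). It passed with the 75th percentile taken over probes detected on all arrays (0.0493), with the floor on low signals (0.0449) and when a probe had to exceed background in all arrays of the fit (0.0332). The shares of all genes called in these fits are not given here. Without the STAT6-KO spleen MI 4 weeks array Elane stood at -0.76 and Fcnb at -0.78. With all pairs their values were -1.44 ± 0.47 and -1.80 ± 0.62 (limma adjusted p = 0.166 and 0.187), and without the pairing of the arrays they passed (0.0444 and 0.0394), as did 5.21% of all genes.

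In HDC-KO against WT no member was called in this comparison, where 1.78% of genes were (1.45% as higher and 0.333% as lower). The values ranged from -2.03 ± 0.62 for Fcnb (SE, limma adjusted p = 0.132) to -0.28 ± 0.34 for Camp (0.681). Lcn2 was at -1.32 ± 0.30 (0.077). Both comparisons use the same WT pairs.

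The likeness of the members was described by Pearson's r over the 22 arrays after the mean of each tissue was subtracted. The arrays share slides, controls and scaling, so the values are given as a description. Among the 4 azurophil genes, the 6 values of r lay between 0.84 and 0.96 with a median of 0.90. Among the 4 specific granule genes they lay between 0.15 and 0.82 with a median of 0.62. Between the sets, 16 values lay between -0.10 and 0.75 with a median of 0.41. Mpo and Ctsg were the closest azurophil genes (0.96), followed by Elane and Prtn3 (0.95), which are neighbours on the chromosome. Ms4a3 and Fcnb had 0.90 with each other and a median of 0.88 with the azurophil genes. With the specific granule genes they had a median of 0.56, between -0.05 and 0.84, and each had 0.84 with Lcn2. Lcn2 itself had 0.69 to 0.75 with the azurophil genes, and 0.15 (Camp) to 0.72 (Ltf) with the other specific granule genes.

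Within each tissue the sets stood differently to each other. Over the 11 bone marrow arrays, r between azurophil and specific granule genes had a median of -0.05, and over the 11 spleen arrays of 0.61. Among the azurophil genes the medians were 0.78 in bone marrow and 0.93 in spleen. In bone marrow, the HDC-KO MI 1 week array had the highest azurophil mean (4.48) with a specific mean of 6.45. The STAT6-KO MI 2 weeks array had the highest specific mean (6.86) with an azurophil mean of 3.40. In spleen both means were highest on the WT MI 1 week array, with an azurophil mean of 2.27. They were lowest on the STAT6-KO MI 4 weeks array, with an azurophil mean of -1.49 and a specific mean of 4.56. Among the complete arrays, this WT spleen array had the lowest share of spots well above background (70.4%), followed by WT bone marrow MI 1 week (71.3%). The 75th percentile used for scaling was lowest on this STAT6-KO spleen array (928), followed by WT bone marrow MI 4 weeks (963). The part of these array properties in the values of the members was not tested.

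**Figure D5:**
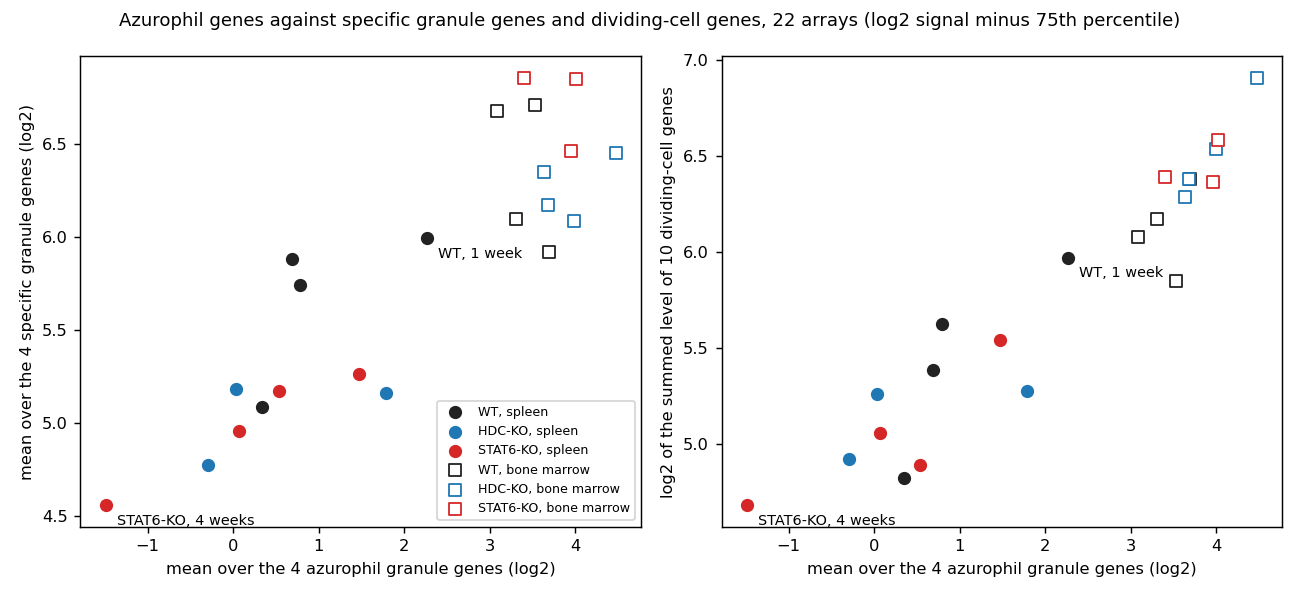
Mean of the 4 azurophil genes on each of the 22 arrays (horizontal axis, log2 signal minus the 75th percentile) against the mean of the 4 specific granule genes (left) and the log2 summed level of 10 dividing-cell genes (right). The spleen arrays spread over 3.76 on the azurophil axis and the bone marrow arrays over 1.39, and the WT MI 1 week and STAT6-KO MI 4 weeks spleen arrays are the ends of the spleen range in both panels.

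The genes nearest to each set were taken from 15053 genes well above background on at least 20 arrays, by r with the mean of the 4 members. Nearest to the azurophil mean were Prss57 (0.90), a serine protease of the same granules, Ptgr1 (0.89), prostaglandin reductase 1, Ccna2 (0.89), cyclin A2, Cdca3 (0.88), a cell division gene, and E2f7 (0.87), a transcription factor of the cell cycle. Nearest to the specific mean were Ckap4 (0.95), a protein of the endoplasmic reticulum, Adpgk (0.89), the ADP-dependent glucokinase, and Itgam (0.89), which encodes CD11b itself. They were followed by the histone genes H2ac11 and H2ac10 (0.88 each).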

How the data were processed

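RNA of CD11b+ cells was measured on one-colour Agilent Mouse 4x44K arrays, and the authors read the scans with Agilent Feature Extraction 11.0.1.1. The deposited values are spot intensities on the linear scale, background-subtracted and detrended per the file headers, and not normalized between arrays. GCRMA is named in the submitters' processing notes and Genespring in the study's methods, and their output was not used here. Intensities were taken to log2 and scaled to the 75th percentile of 43020 spots, which lay between 928 and 2461 in the 22 arrays. Outlier spots were left out, probes were named through RefSeq accessions (27234 of 39429 probes), and the probe with the highest mean stood for a gene. Genes well above background on at least 2 arrays of a comparison were tested with limma 3.58.1 in R 4.3.3, with Benjamini-Hochberg adjustment over all of them. Tissues were compared in 10 pairs of the same genotype and time point, genotype and time in additive fits within a tissue, and genotype effects between tissues on the differences of the pairs. The labels give no replicate numbers that tie arrays of the tissues, and whether the same mice gave both tissues is not given in the sources used here. The methods' t-test (fold change over 2 and p under 0.05) was an alternative. The named genes were the 10 members, the 4 genes of each list with the highest mean signal, and the 5 genes nearest to each set, and any other gene was named after its values were seen. Members, gene lists and motifs were chosen with earlier results of these data known. The fits were tested on simulated data.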

Additional observations from a re-analysis of the deposited data

Results flagged for a closer look

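For Ngp the fitted effect of STAT6-KO differed between the 2 tissues, but the call was not stable. It held in 10 of 15 alternatives, with limma adjusted p up to 0.254, and was lost without any single time point and under quantile normalization. Genotype and slide cannot be told apart within a tissue. STAT6-KO against WT was lower by 1.61 more in spleen than in bone marrow on the log2 scale (-1.61, limma adjusted p = 0.0311 for the difference itself), lower in 4 of 4 time points in spleen and higher in 2 of 3 in bone marrow.

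Other members were listed because every time point of a knockout moved one way in spleen and the opposite way in bone marrow, and for these the difference did not pass the limma test. The share of all genes that met this rule was not computed, so the number of members listed cannot be set against it. Fcnb in STAT6-KO had a difference of -1.80 (adjusted p = 0.187), with 4 spleen values from -2.54 to -0.40 and 3 bone marrow values from 0.32 to 1.13. In HDC-KO, over 3 spleen and 4 bone marrow time points, the differences between the tissues were -1.02 for Mpo (adjusted p = 0.396), -1.29 for Elane (0.181), -1.61 for Ms4a3 (0.240), -2.03 for Fcnb (0.132) and -1.32 for Lcn2 (0.077) in limma. The bone marrow values of Mpo (0.02 to 1.34), Fcnb (0.05 to 0.70) and Lcn2 (0.04 to 0.31) reached close to 0. All 5 rest on the same HDC-KO and WT arrays, and each genotype and tissue lies on a slide of its own, so that genotype and slide cannot be told apart.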

How the results depend on the processing

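The pairing of tissues by genotype and time point entered the tissue fit as a replicate block. With no replicate block 10 members were still called lower in spleen, where 53.1% of all genes were called. In that setting 3 members in place of 1 had a STAT6-KO effect that differed between the tissues. The share of all genes called for that effect was larger too, as given above. The count for that effect was 0 under quantile normalization, where a smaller share of all genes was called. It was 2 with the 75th percentile over probes well above background on all arrays, with a floor on low signals, or when a probe had to exceed background in all arrays of the fit. The shares of all genes called in these fits are not given here, so the gain of Ltf cannot be set against them. In STAT6-KO spleen the count of 1 became 0 with normexp, with the 2 genotypes alone, and without the STAT6-KO spleen MI 4 weeks array, an alternative chosen after seeing the data. The share of all genes called was between 0.0151% and 0.813% in these fits, against 1.95% in the fit described above. In STAT6-KO bone marrow the count rose from 0 to 1 under quantile normalization, where the share of all genes called rose from 4.61% to 5.5%. In HDC-KO spleen it rose from 0 to 6 with the 2 genotypes alone, where the share of all genes called rose from 2.8% to 9.95%. At 1 week after MI in spleen the count of 3 became 0 with normexp or with the 2 time points alone (0% of all genes called in both), and 6 without that array (9.17% of all genes, against 7.9% with it). The azurophil minus specific median there was 0.91, and 1.22 with Ms4a3 and Fcnb added. With no tissue mean subtracted, the median r was 0.98 among azurophil genes and 0.83 between the sets. The cause of these changes was not tested.

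With single pairs, time points, genotypes or members left out, the counts ranged from 9 to 10 between tissues and from 0 to 3 in STAT6-KO spleen. The share of all genes called ranged from 50.7% to 54.6% and from 0.115% to 3.67% in these 2 comparisons. The counts ranged from 0 to 1 in HDC-KO spleen and from 0 to 7 at 1 week in spleen, and were 0 for the STAT6-KO effect between tissues. For the last 2, the shares of all genes are given above, and those for HDC-KO spleen are not given here. The azurophil minus specific median ranged from -2.26 to -1.55 between tissues and from 0.65 to 1.18 at 1 week in spleen. Of 1830 alternative values of 130 member results, 0 called values changed sign, 34 lost and 22 gained a call, and 125 values that were not called moved by more than their standard error. Of 304 alternatives of 20 summary values, 33 moved. Values that were not called did change sign, as Lcn2 at 4 weeks in spleen, with the same sign in 6 of 13. By the methods' t-test with its fold threshold, 8 members passed between tissues, 1 in STAT6-KO spleen and 0 in the other genotype comparisons. Of all genes, 22.5% passed it between tissues, 2.94% in STAT6-KO spleen and 4.12% in STAT6-KO bone marrow. The shares for the HDC-KO comparisons are not given here. With Benjamini-Hochberg adjustment and no fold threshold, 10 members passed between tissues and 0 in STAT6-KO spleen and in STAT6-KO bone marrow. Of all genes, 14633 of 27659 passed between tissues, 23 of 25974 in STAT6-KO spleen and 105 of 26399 in STAT6-KO bone marrow. All members were well above background on all 22 arrays.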
